A study of Danio rerio with 3 samples.

Results

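The p53 core response genes examined here were 9 genes listed by name: mdm2, mdm4, cdkn1a, ccng1, gadd45aa, baxa, bbc3, phlda3 and sesn1. They were matched by gene symbol in the array platform's probe annotation, which held 8 of the 9 genes with 15 probes, out of 15571 annotated genes and 43603 probes. The gene cdkn1a, which encodes the cyclin-dependent kinase inhibitor p21, matched no probe and is not analysed here. The study exposed wild-type zebrafish embryos of the Ab strain to 40 µM LY-364947, an inhibitor of TGF-β receptor 1, from 8 to 48 hours post fertilisation, and compared them with untreated embryos at the same stage. Whole embryos were used, with 10 to 15 embryos pooled for each biological replicate. RNA of 3 treated replicates was hybridised to 3 arrays, each against 1 pool made from 3 untreated replicates, and the dyes were swapped on the array of replicate 2.

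The tumour suppressor p53 is a transcription factor that is kept low in unstressed cells by Mdm2, a ubiquitin ligase that marks it for degradation. DNA damage and other stresses free p53 from this control. It then activates genes that halt the cell cycle, repair DNA or start apoptosis, along with mdm2 itself, which closes a negative feedback loop. In zebrafish embryos, transcripts of this response are widely used as a sign of toxic or off-target stress.

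Each array gave 1 log ratio per probe, read here on the log2 scale. Over all genes, the ratios of replicates 1 and 2 correlated at r = 0.820, those of replicates 2 and 3 at 0.738 and those of replicates 1 and 3 at 0.644, after the sign of replicate 2 had been turned. These correlations run across genes, which are not independent replicates. The direction of the ratio was not given in the sources used here. If the numerator follows the order of names in the titles, positive values mean more RNA in LY-364947 embryos; if it is Cy5, they mean more in the pool. Values are therefore given as positive or negative. The files held no intensities, so levels of transcripts, signal over background and the presence of defining markers of any tissue could not be examined.

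Of the 8 measured core response genes, 0 had an adjusted p under 0.05 by limma over the 3 arrays, the threshold for a call. Among all genes, 19.4% were called, 9.92% with positive means and 9.43% with negative means. An unadjusted p under 0.05 by limma was found for 4 of the 8 genes, against 32.5% of all genes. In ordinary t tests, without variance shared across genes, it was found for 0 of the 8, against 3417 of the 15571 genes. The mean ratio of ccng1 was the largest in size at -0.27 ± 0.34 (SD, n = 3), a 1.20-fold difference if the log is log2. The median size of the 8 means was 0.18, against 0.089 for all genes. The mean was negative for 6 genes and positive for 2, baxa and sesn1, where 50.4% of all genes had a negative mean, and the median of the 8 means was -0.18, against -0.0013 for all genes. All 3 arrays were negative for 2 of the 8, gadd45aa and bbc3, against 26.4% of all genes, and all were positive for 1, baxa, against 25.9%. Adjusted p values by limma ranged from 0.0519 to 0.772. The error of the untreated pool is shared by all 3 ratios and is not part of any SD or p value given here, and p values rest on 3 arrays. In whole embryos, fewer cells of a type and less RNA per cell cannot be told apart.

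Of the regulators of p53 among the core genes, mdm2 differed more between arrays than mdm4. The ratio of mdm2 was -0.42, -0.18 and 0.07 on replicates 1, 2 and 3. The first of these values lay clearly below 0 and the last slightly above it. The mean was -0.18 ± 0.24, with a 95% interval of -0.40 to 0.04 and an adjusted p of 0.229 by limma. Its 3 probes gave close means, from -0.14 to -0.22, and each was lowest on replicate 1 and highest on replicate 3. The relative mdm4, whose product binds and restrains p53 without strong ligase activity of its own, stood at -0.05, -0.17 and 0.12 on replicates 1, 2 and 3. Its mean of -0.04 ± 0.15 had a 95% interval of -0.19 to 0.12 (adjusted p = 0.772).

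Among genes tied to cell cycle arrest, ccng1 had the widest spread of the 8. This gene encodes cyclin G1, an established p53 target that recruits a phosphatase to Mdm2. Its ratios were -0.57, -0.33 and 0.10 on replicates 1, 2 and 3, so the third array lay on the other side of 0. The mean of -0.27 had a 95% interval of -0.55 to 0.01 (adjusted p = 0.173). The 3 ccng1 probes did not give the same mean. Probe A_15_P100851 averaged -0.39 and was negative on every array, at -0.61, -0.37 and -0.21, and it passed among all probes (adjusted p = 0.0303). The other probes averaged -0.35 (A_15_P193336) and -0.06 (A_15_P468145), did not pass, and were positive on replicate 3 at 0.12 and 0.38. All 3 probes had their lowest value on replicate 1 and their highest on replicate 3. When each gene was represented by its probe of smallest spread, A_15_P100851 for ccng1, 1 of the 8 genes was called with a negative mean, ccng1 itself, against 11.3% of all genes. This choice used the same ratios that were tested, which favours a call, and the ccng1 call repeats that of its probe.

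The growth arrest and DNA damage gene gadd45aa was negative on every array, at -0.12, -0.18 and -0.30. Its mean of -0.20 ± 0.09 (95% interval -0.34 to -0.07) missed the threshold narrowly (adjusted p = 0.0519). Both of its probes were negative throughout, with means of -0.22 and -0.18. Unlike the other 7 genes, gadd45aa had its lowest ratio on replicate 3.

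**Figure D1:**
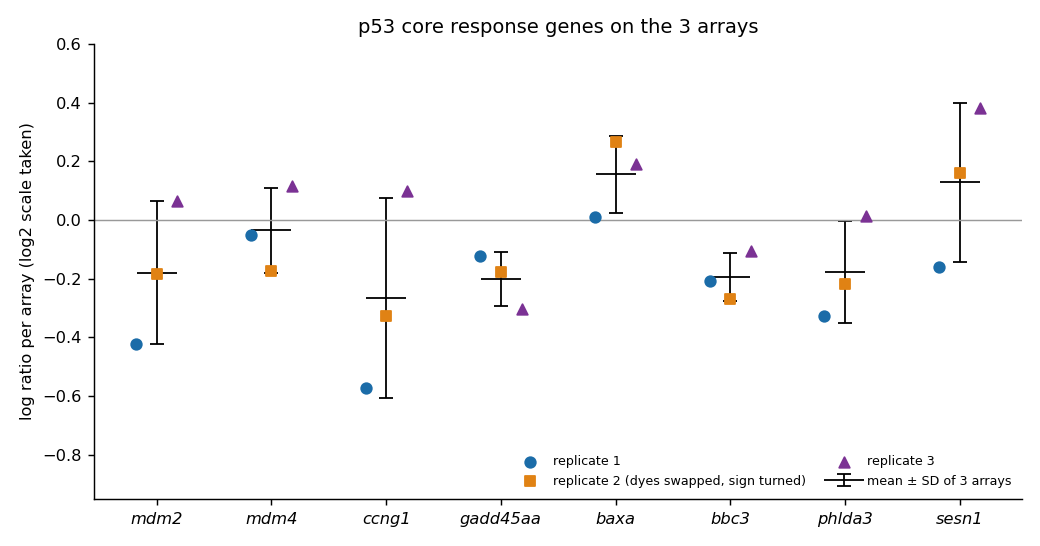
Log ratio of each core response gene on the 3 arrays (points, probes of a gene averaged), with the mean and SD of the arrays (bars, n = 3). Ratios of mdm2, ccng1, phlda3 and sesn1 spread across 0 with replicate 1 lowest and replicate 3 highest, whereas gadd45aa and bbc3 were negative and baxa positive on every array.

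The apoptosis genes lay on opposite sides. The gene bbc3 encodes Puma, a BH3-only protein that unleashes mitochondrial apoptosis. Its ratios were -0.21, -0.27 and -0.11, negative on all arrays, with a mean of -0.19 ± 0.08 (95% interval -0.33 to -0.06, adjusted p = 0.0533 by limma). The call at the level of probes depended on the probe: A_15_P193791 averaged -0.31 and passed (adjusted p = 0.0412), and A_15_P165516 averaged -0.08 and did not (adjusted p = 0.461). In contrast, baxa, which encodes the pore-forming effector Bax, was positive on all arrays at 0.01, 0.27 and 0.19. The value of replicate 1 was close to 0, and the mean of 0.16 ± 0.13 did not pass (limma 95% interval 0.0035 to 0.31, adjusted p = 0.146).

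The remaining genes act in growth and stress signalling. The ratios of phlda3, whose product opposes Akt activation at the membrane, were -0.33, -0.22 and 0.01, with a mean of -0.18 ± 0.17 (adjusted p = 0.148). Sestrin 1, encoded by sesn1, restrains mTORC1 and takes part in antioxidant defence. Its ratios were -0.16, 0.16 and 0.38 on replicates 1, 2 and 3, and the mean of 0.13 ± 0.27 did not pass (adjusted p = 0.431). Most of this spread came from 1 of its 2 probes. Probe A_15_P176731 read -0.33, 0.20 and 0.65, whereas A_15_P130311 read 0.01, 0.12 and 0.11.

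**Figure D2:**
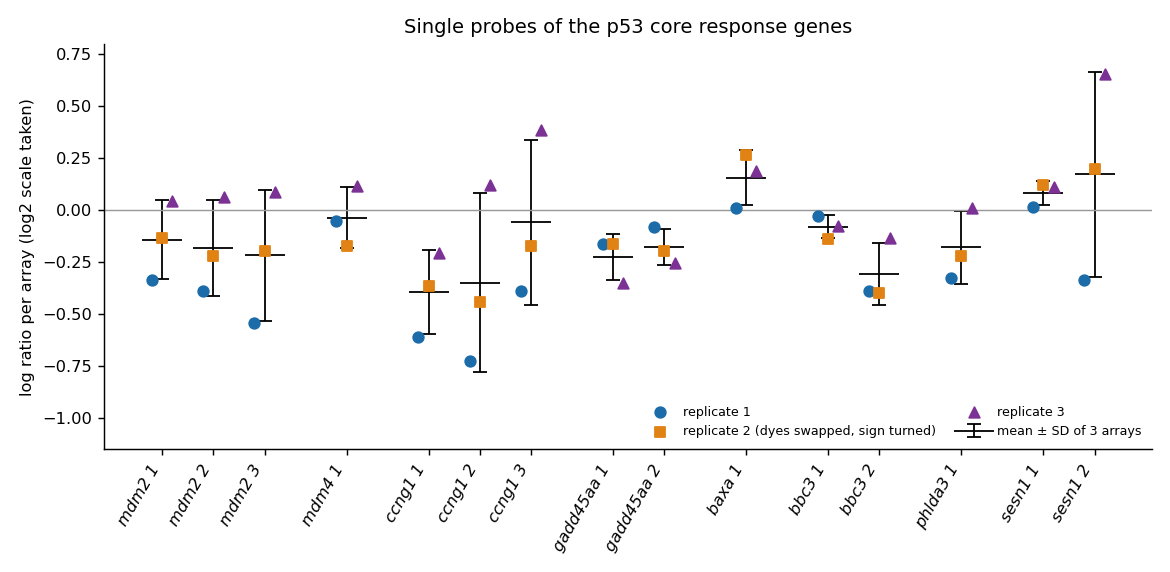
Log ratio of each of the 15 probes of the core response genes on the 3 arrays (points), with the mean and SD (bars, n = 3), probes of a gene numbered side by side. Of 15 probes, 12 were higher on replicate 3 than on replicate 1. The probes of ccng1 and bbc3 differed in their means, and those of sesn1 in their spread over the arrays.

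Taken singly, 2 of the 15 probes were called by limma over all probes, both negative, against 4.91% of all probes called negative. That share includes probes without a gene, as only 23717 of the 43603 probes carried one. The share among probes with a gene was not computed, and among genes 9.43% were called negative. The 2 called probes were the ccng1 and bbc3 probes given above. The means of probes of 1 gene lay 0.33 apart for ccng1 and 0.23 for bbc3, and 0.09 or less for mdm2, gadd45aa and sesn1. Over the 6095 genes with more than 1 probe, the median of this gap was 0.11.

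Part of the core response genes differed widely between the treated replicates. On replicate 1, 7 of 8 were negative with a median of -0.18, and on replicate 2, 6 of 8 were negative with a median of -0.18. On replicate 3, 2 of 8 were negative and the median was 0.08. The ratio was higher on replicate 3 than on replicate 1 for 7 of 8 genes, against 48.4% of all genes, and highest of the arrays on replicate 3 for 6 of 8 genes, against 35.4%. Replicate 3 exceeded replicate 1 by 0.67 for ccng1, a size reached by 1.14% of all genes, by 0.54 for sesn1 (2.36%), by 0.49 for mdm2 (3.38%) and by 0.34 for phlda3 (9.90%). The other 4 lay well within the general range: the size of this difference was reached by 33.3% of all genes for baxa, 33.7% for gadd45aa, where replicate 3 was the lower, 36.7% for mdm4 and 57.6% for bbc3. The SDs of ccng1, sesn1 and mdm2 fell among the widest 5% of all genes. Replicates 1 and 3 carried the same dye orientation. Differences between single arrays have no test and are given as a description.

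**Figure D3:**
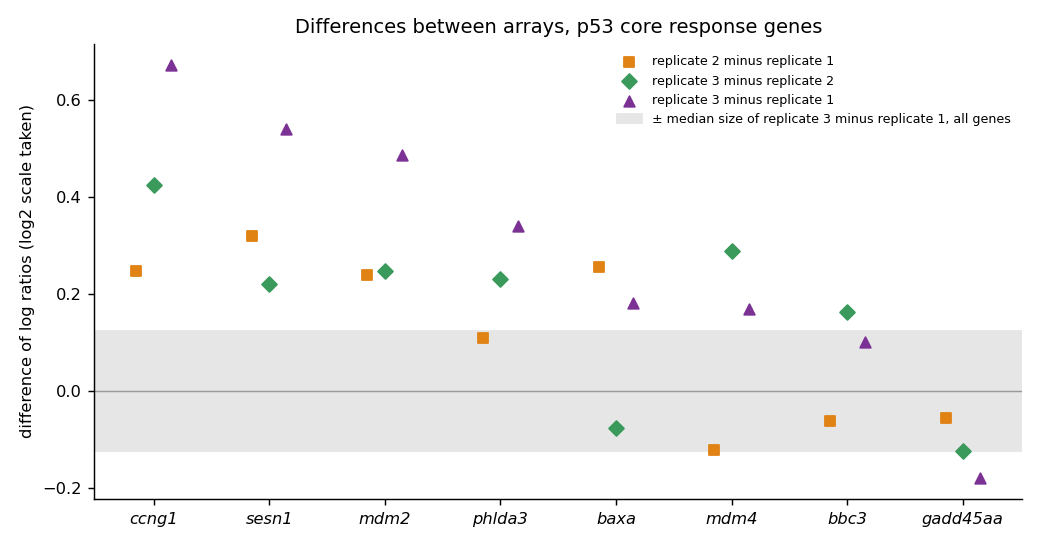
Differences between the log ratios of the arrays for each core response gene (points), ordered by replicate 3 minus replicate 1. The grey band spans the median size of replicate 3 minus replicate 1 over all genes, 0.12, and 7 of the 8 genes lie above 0 for that difference.

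The number of calls depended on the same array. Without replicate 3, 4 of 8 genes were called by limma with negative means, against 11.6% of all genes: ccng1 at -0.45 (adjusted p = 0.00112), mdm2 at -0.30 (0.0108), phlda3 at -0.27 (0.00997) and bbc3 at -0.24 (0.0182). Without replicate 1, 0 of 8 were called, against 13.7% of all genes, and the means of mdm2 and ccng1 were -0.06 and -0.11. Without replicate 2, 0 of 8 were called, against 6.69%, and those means were -0.18 and -0.24. The mean of sesn1 was 0.27 without replicate 1 and 0.0013 without replicate 3. Fits on 2 arrays had 1 residual degree of freedom. A list of proliferation genes moved in the same sense between the arrays, with medians of -0.47, -0.39 and -0.28 on replicates 1, 2 and 3. These medians were negative on every array, unlike those of the core genes. Of the 27 measured genes of the list, 21 were higher on replicate 3 than on replicate 1, against 48.4% of all genes. The part of this list in the ratios of the p53 genes was not tested.

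The p53 family was represented by tp63, a regulator of epidermal stem cells, and tp73, which acts in neural development. The ratios of tp63 were 0.19, 0.14 and 0.29, and its mean of 0.21 ± 0.08 passed (adjusted p = 0.0416). This call was lost without replicate 1 (0.22, adjusted p = 0.103), without replicate 2 (0.24, 0.150) and without replicate 3 (0.16, 0.0829), and 1 of its 4 probes passed on its own (0.45, adjusted p = 0.0450). The mean of tp73 was -0.0088 ± 0.07 (adjusted p = 0.935).

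Of 34 listed p53 regulators and DNA damage signalling genes, 28 were measured. Limma called 6 negative (21.4%, against 9.43% of all genes) and 1 positive (3.57%, against 9.92%), and 21 did not pass. The median was -0.08. The smallest adjusted p values belonged to the checkpoint kinase genes, with chek1 at -0.71, -0.61 and -0.48 (mean -0.60 ± 0.11, adjusted p = 0.00119) and chek2 at -0.46, -0.45 and -0.55 (mean -0.49 ± 0.05, adjusted p = 0.00146). Both were negative on every array by similar amounts. The ribosomal protein gene rpl5a, whose product can bind Mdm2, averaged -0.48 ± 0.06 (adjusted p = 0.00173). The histone variant gene h2ax, a substrate of the damage kinases, averaged -0.37 ± 0.08 (adjusted p = 0.00502), a call that was lost without replicate 2 at -0.33 (adjusted p = 0.0696). The positive call was ppm1db, a relative of the mammalian phosphatase gene PPM1D that restrains p53, at 0.21 ± 0.07 (adjusted p = 0.0334). It was lost without replicate 1 (0.19, 0.131) and without replicate 2 (0.25, 0.129). Tested among all probes, the single ppm1db probe did not pass (limma adjusted p = 0.0655). The number of negative calls was 3 without replicate 2, where 6.69% of all genes were called on either side.

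Of 48 genes in a broader list of p53 targets, 34 were measured. Limma called 9 negative (26.5%, against 9.43% of all genes) and 3 positive (8.82%, near the 9.92% of all genes), and 22 did not pass. Of the negative calls, sesn2, sesn3, gadd45ab, casp8, casp9 and bida are also counted in the sestrin, Gadd45, caspase and Bcl-2 lists below. The counts of these lists are therefore not separate results. With a dye term, 3 were negative and 0 positive, where 1465 of all genes were called on either side, against 3013 without it. The median was -0.04, and 18 of 34 were higher on replicate 3 than on replicate 1, against 48.4% of all genes. The smallest adjusted p belonged to sesn2, a sestrin gene that also answers amino acid shortage, at -0.72, -0.78 and -1.06 (mean -0.85 ± 0.18, adjusted p = 0.000698). It was followed by the antiproliferative gene btg2 at -1.02, -0.88 and -0.66 (mean -0.85 ± 0.19, adjusted p = 0.000756). The apoptosome protease gene casp9 averaged -0.32 ± 0.07 (adjusted p = 0.00775) and the nucleotide excision repair gene xpc -0.30 ± 0.06 (adjusted p = 0.00936). Without replicate 2, where 6.69% of all genes were called on either side, both calls were lost. The means were then -0.30 for casp9 (adjusted p = 0.0920) and -0.28 for xpc (adjusted p = 0.104). The counts of this list without replicate 2 were 2 negative and 0 positive. The positive calls were the transglutaminase gene tgm2a (0.48 ± 0.26, adjusted p = 0.0160), the antiproliferative gene btg1 (0.32 ± 0.23, 0.0441) and the mitochondrial ferredoxin reductase gene fdxr (0.20 ± 0.04, 0.0371). Tested among all probes, the single probes of btg1 and fdxr did not pass (limma adjusted p = 0.0759 and 0.0729). The relative tgm2b was among the negative calls (-0.54 ± 0.41, adjusted p = 0.0353), although neither of its 2 probes passed (0.0502 and 0.0813). The call of tgm2a was lost without replicate 2 (0.50, 0.0923). That of btg1 was lost without replicate 2 (0.34, 0.182) or replicate 3 (0.20, 0.0554), and that of fdxr without any 1 of the replicates (0.18 to 0.22, adjusted p from 0.0528 to 0.162).

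**Figure D4:**
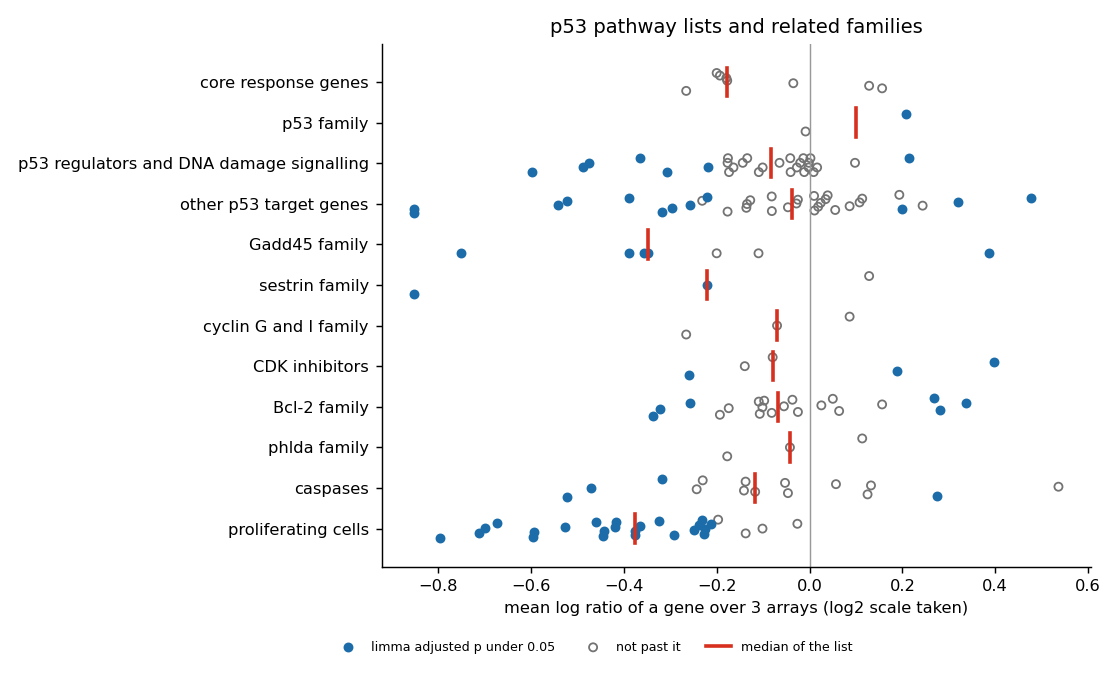
Mean log ratio over 3 arrays of every measured gene in each list (points, filled where the limma adjusted p is under 0.05), with the median of the list (red bar). The core response genes hold no filled point, and the proliferation genes lie on the negative side throughout.

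The Gadd45 list held 7 genes, gadd45aa included. Limma called 4 negative (57.1%, against 9.43% of all genes) and 1 positive (14.3%, against 9.92%), and gadd45aa and gadd45gip1 did not pass. With a dye term, 2 were negative and 1 positive, where 1465 of all genes were called on either side, against 3013 without it. The largest ratio in size was that of gadd45gb.1, at -0.91, -0.77 and -0.58 (mean -0.75 ± 0.17, adjusted p = 0.000971). The mean was -0.36 ± 0.12 for gadd45ba (adjusted p = 0.00866), -0.35 ± 0.08 for gadd45bb (0.00620) and -0.39 ± 0.31 for gadd45ab (0.0490). On the other side, gadd45ga stood at 0.55, 0.28 and 0.33, with a mean of 0.39 ± 0.15 (adjusted p = 0.00882). The gene gadd45gip1, whose mammalian product was named for binding Gadd45 and belongs to the mitochondrial ribosome, averaged -0.11 ± 0.09 and did not pass. Without replicate 2, where 6.69% of all genes were called on either side, 1 of the 4 negative calls was left. The genes gadd45ba (-0.38, adjusted p = 0.0691), gadd45bb (-0.35, 0.0706) and gadd45ab (-0.39, 0.206) did not pass. The call of gadd45ab was also lost without replicate 3 (-0.23, adjusted p = 0.0501). Tested among all probes, the single gadd45ab probe did not pass (limma adjusted p = 0.0809).

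The sestrins differed from one another. Next to sesn1 with ratios on both sides of 0, sesn2 was negative on all arrays, and both of its probes passed. The third gene, sesn3, averaged -0.22 ± 0.11 (adjusted p = 0.0457). Its call was lost without replicate 1 (-0.22, adjusted p = 0.119), replicate 2 (-0.28, 0.110) or replicate 3 (-0.17, 0.0897). Tested among all probes, the single sesn3 probe did not pass (limma adjusted p = 0.0837). The array that gave the highest ratio of sesn1, replicate 3, gave the lowest ratios of sesn2 and sesn3.

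**Figure D5:**
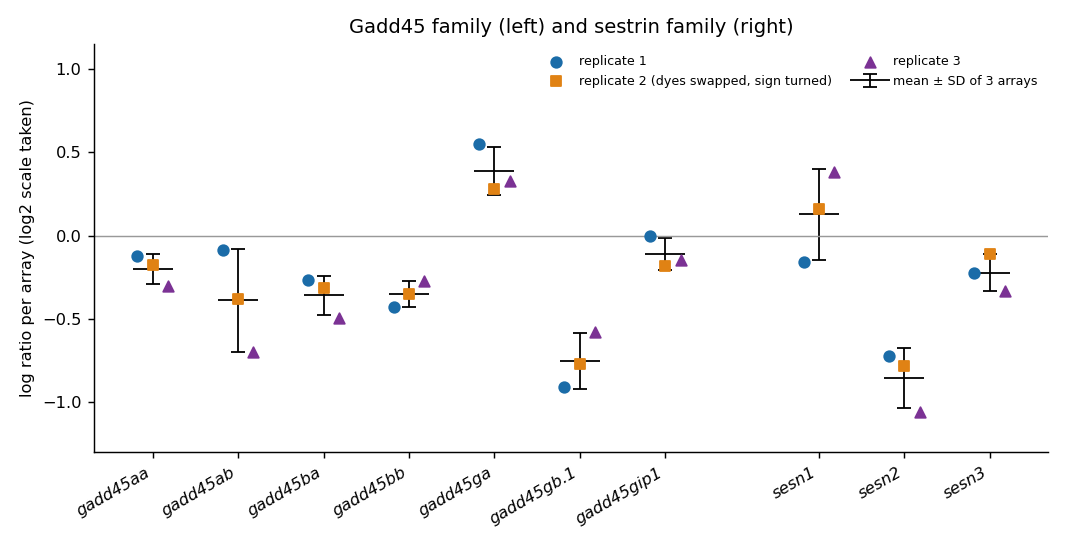
Log ratios of the Gadd45 list and the sestrin family on the 3 arrays (points), with mean and SD (bars, n = 3). The gene gadd45gb.1 and sesn2 lie lowest, gadd45ga is positive on every array and sesn1 spreads across 0.

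Of the other relatives, ccng2 averaged 0.09 ± 0.11 and ccni -0.07 ± 0.12, and neither passed. The Phlda genes phlda1 (-0.04 ± 0.05) and phlda2 (0.11 ± 0.13) did not pass. Among cyclin-dependent kinase inhibitors, with cdkn1a itself not measured, the p27 genes were called positive. The ratios of cdkn1ba were nearly equal on the arrays, at 0.38, 0.39 and 0.42 (mean 0.40 ± 0.02, adjusted p = 0.00264), and both of its probes passed. The mean of cdkn1bb was 0.19 ± 0.02 (adjusted p = 0.0399). Leaving out replicate 1, 2 or 3 gave 0.20, 0.19 and 0.18 with adjusted p values of 0.0997, 0.239 and 0.0585. Over all genes, 13.7% were called without replicate 1 and 6.69% without replicate 2. Taken singly, the cdkn1bb probes did not pass, with limma adjusted p values from 0.0716 to 0.0990. The p57 gene cdkn1cb averaged -0.26 ± 0.11 (adjusted p = 0.0252), which was lost without replicate 1 (-0.26, adjusted p = 0.0739) or replicate 2 (-0.32, 0.0807). Its partner cdkn1ca stood at -0.37, -0.21 and 0.16 and did not pass (mean -0.14 ± 0.27, adjusted p = 0.392), although it did without replicate 3 (-0.29, 0.0088). The mean of cdkn2c was -0.08 ± 0.01 (adjusted p = 0.324).

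Of 20 measured genes of the Bcl-2 family, which sets the threshold of mitochondrial apoptosis, limma called 3 negative (15%, against 9.43% of all genes) and 3 positive (15%, against 9.92%), and 14 did not pass. With a dye term, the counts were 0 negative and 1 positive, where 1465 of all genes were called on either side, against 3013 without it. The median was -0.07. The negative calls were the survival gene mcl1a (-0.32 ± 0.12, adjusted p = 0.0135), the BH3-only gene bida (-0.26 ± 0.04, 0.0145) and the survival gene bcl2a (-0.34 ± 0.17, 0.0205). The positive calls were bcl2l13, a mitochondrial family member (0.34 ± 0.09, 0.00801), bcl2l10 (0.28 ± 0.05, 0.0108) and the mitophagy receptor gene bnip3lb (0.27 ± 0.09, 0.0179). Of the 3 bcl2l13 probes, 2 passed and the third averaged -0.02. For bcl2l10 and bnip3lb, 1 probe each passed and the other did not. Without replicate 1, the calls of mcl1a (-0.27, adjusted p = 0.0537), bida (-0.24, 0.0608) and bnip3lb (0.23, 0.0753) were lost. Without replicate 2, where 6.69% of all genes were called on either side, mcl1a was still called. The genes bcl2a (-0.36, adjusted p = 0.113), bida (-0.28, 0.0963), bcl2l13 (0.38, 0.0558), bcl2l10 (0.27, 0.114) and bnip3lb (0.31, 0.0755) were not.

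Among 15 measured caspases and partners, limma called 3 negative (20%, against 9.43% of all genes) and 1 positive (6.67%, against 9.92%). Apart from casp9, the negative ones were diablob (-0.47 ± 0.11, adjusted p = 0.00281), whose product counters inhibitors of apoptosis, and the initiator gene casp8. The ratios of casp8 were -0.96, -0.44 and -0.17, with a mean of -0.52 ± 0.40 (adjusted p = 0.0385). Its call was lost without replicate 1 (-0.30, 0.0539) or replicate 2 (-0.57, 0.145). Tested among all probes, the single casp8 probe did not pass (limma adjusted p = 0.0633). The cytochrome c gene cycsb averaged 0.27 ± 0.10 (adjusted p = 0.0190), and was lost without replicate 2 (0.22, 0.177). Without replicate 2, 1 negative and 0 positive calls were left, where 6.69% of all genes were called on either side.

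The list of proliferation genes was set beside the core genes as a list of cell cycle genes. It also holds rb1 and rbl1, which are not markers of dividing cells. Of these, rb1 was called negative (-0.38 ± 0.13, limma adjusted p = 0.00866) and rbl1 did not pass. Whether the ratios of the list are linked to p53 was not tested. Of 27 measured, limma called 23 negative (85.2%, against 9.43% of all genes) and 0 positive, and 4 did not pass, with all 27 means negative and a median of -0.38. The replication clamp gene pcna averaged -0.80 ± 0.05 (adjusted p = 0.000236), the helicase gene mcm2 -0.70 ± 0.04 (0.000349) and the kinase gene cdk2 -0.53 ± 0.03 (0.000916). The count was 15 without replicate 1, where 13.7% of all genes were called on either side, and 8 without replicate 2 (6.69%). It was 24 without replicate 3, where 11.6% of all genes were called negative. With a dye term it was 13, where 1465 of the 15571 genes were called on either side.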

How the data were processed

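Per the labels' protocols, RNA of whole embryos was amplified, labelled with Cy3 or Cy5 and hybridised in pairs. The authors deposited 1 log ratio per probe and array, taken here as log2 values; the submitters' processing notes name Partek, and the background correction, the scaling, the base of the log and the numerator were not stated. If the base were 10, every fold would be larger and the tests against 0 the same. The alternative with a minimum change of 0.1 would then ask for a larger fold. Array medians as deposited lay between -0.005 and -0.0028. Of 43648 rows, 45 controls were left out. The sign of the dye-swapped replicate 2 was turned, as it correlated below 0 with the others (r = -0.742 and -0.647). Probes of a gene (by Entrez identifier, 23717 probes) were averaged, and the mean ratio was tested against 0, two-sided, with limma 3.58.1 in R 4.3.3 (lmFit and eBayes, 2 residual degrees of freedom, Benjamini-Hochberg over all genes or all probes, threshold 0.05). The fit was tested on simulated data. Symbols of the 8 genes were the same in the GRCz12tu gene table. The genes and the 11 other lists were chosen with earlier results of these data known. Genes named were every core gene, the p53 relatives and families, and up to 4 genes per list with the smallest adjusted p. The genes bcl2a, bnip3lb, ppm1db, tgm2a, btg1 and fdxr were added with their values known, to name all members of small counts. The last section also names tp53inp1, dram1, perp, tgm2b and casp3b, picked with their values known for wide differences between replicates. Of these, tgm2b is also named beside tgm2a. No sequences were used here. The number of arrays limits precision. There were 14 alternatives, covering scaling, dye, variance, threshold, probes, sign and replicates. Plots used matplotlib 3.10.9.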

Additional observations from a re-analysis of the deposited data

How the results depend on the processing

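Of the 15571 genes, 3013 passed on the 3 arrays, 1465 with a dye term, 1639 with a minimum change of 0.1, 1434 at a threshold of 0.01, and 1041 to 3693 when 1 replicate was left out. The count was 0 without shared variance, where 3417 genes had an unadjusted p under 0.05, and 0 with all arrays as deposited, where 34 had. Of the core response genes, 0 passed on the negative side on 3 arrays and 1 did with arrays scaled to one SD (gadd45aa, adjusted p = 0.0457; 3095 of all genes passed), with quantile normalisation (gadd45aa, 0.0491; 3083), with a robust prior (gadd45aa, 0.0497; 3067) and with the probe of smallest spread (ccng1 at -0.39, 0.0142); leaving out 1 replicate gave 0 to 4, the 4 without replicate 3. On the positive side 0 passed under each of the 14 alternatives. Without shared variance and with all arrays as deposited this could not be otherwise, as 0 of all genes passed. The median of the core genes, -0.18 on 3 arrays, moved by less than its SD over the arrays, 0.15, under each of them. That SD was nearly as large as the median itself, so this check could hardly fail and does not show stability. The median ranged from -0.19 to -0.08 when 1 replicate was left out. The sign turned with all arrays as deposited for mdm4 (0.0794), baxa (-0.0217), ccng2 (-0.0575), cdkn1ca (0.000155) and gadd45gip1 (0.0115), with a dye term for tp73 (0.000686) and with the probe of smallest spread for bcl2l13 (-0.0248). Leaving out 1 replicate gave -0.112 to 0.0331 for mdm4, -0.0323 to 0.0337 for tp73 and -0.111 to 4.21e-05 for ccni. With all arrays as deposited, the sign of the dye-swapped replicate was not turned, so its ratios entered the means with the opposite sign. The cause of the other differences was not tested. No paired analysis was possible because each array already sets a treated replicate against the same pool. Signal over background is unknown, so dim probes could not be told apart.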

Other observations

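Some genes outside the core list also differed widely between treated replicates; their values were known when they were picked. The p53-induced nuclear protein gene tp53inp1 had ratios of -0.27, 0.18 and 0.68 on replicates 1, 2 and 3, and a replicate 3 minus replicate 1 difference of 0.95, a size reached by 0.411% of genes. The autophagy gene dram1 read -0.42, -0.07 and 0.24, and the desmosomal p53 target perp read -0.22, -0.17 and 0.45. In the other sense, gadd45ab read -0.08, -0.38 and -0.70, and tgm2b read -0.07, -0.74 and -0.82. The executioner caspase gene casp3b stood at 1.68 on replicate 3, against -0.09 and 0.02 on replicates 1 and 2, by its single probe. Of these genes, gadd45ab and tgm2b passed on the 3 arrays (limma adjusted p = 0.049 and 0.0353), and tp53inp1, dram1, perp and casp3b did not. Tested among all probes, no probe of gadd45ab (limma adjusted p = 0.0809) or tgm2b (0.0502 and 0.0813) passed.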
